A study of Mus musculus with 10 samples.

Results

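DNA replication licensing and fork genes are described here in hematopoietic stem cells (HSCs) of mice. The 51 genes were taken by symbol from a table of counts for 26146 genes, by a list of roles in replication that was drawn up with earlier results of these data known. All 51 were in the table, and all 51 passed the filter on low counts that left 14165 genes for testing. RNA was sequenced from LSK CD48-CD150+ HSCs, which are lineage-negative, Sca-1+ and c-Kit+ bone marrow cells, of 10 C57BL/6J mice aged 8 to 12 weeks, with 1 library per mouse. Both groups carry loxP-flanked Cited2 on both alleles (Cited2 fl/fl). The 5 Cited2 CTL mice have no Cre and are labelled wildtype, and the 5 Cited2 CKO mice also carry Vav-iCre, a Cre transgene active throughout the hematopoietic system from before birth, so that deletion is neither restricted to adult life nor to HSCs. CITED2 is a transcriptional coregulator that binds CBP and p300.

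Replication is prepared in G1 and carried out in S phase. The origin recognition complex (ORC) marks origins, CDC6 and CDT1 load the MCM2-7 helicase onto them, and geminin blocks CDT1 afterwards so that no origin is licensed again. In S phase the DBF4-dependent kinase CDC7, MCM10, CDC45 and the GINS complex turn loaded MCM2-7 into an active helicase, after which primase and the polymerases, the sliding clamp PCNA with its loaders, the single-strand binding complex RPA, FEN1 and DNA ligase I copy the strands, supplied by ribonucleotide reductase, thymidine kinase and thymidylate synthase. Most adult HSCs are quiescent and few are in S phase at any time, and many of these genes are transcribed under the control of E2F factors at the G1 to S transition.

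E2F recognition words were looked for in the promoters, since many replication genes are known to be controlled by E2F factors. RefSeq promoter windows of GRCm38.p6, from 250 bases before to 50 after the transcript start, were matched to 42 of the 51 genes. The words TTTCGCGC, TTTGGCGC, TTTCCCGC and TTTGCCGC were searched on both strands. At least 1 of them was in a window of 15 of the 42 genes (35.7%), against 490 of 10966 tested genes with a window (4.47%) and 744 of all 32851 windows (2.26%). By role, the words were found for 4 of 5 MCM2-7 genes with a window, both loading factors with a window, 3 of 6 primase and polymerase genes, 2 of 6 ORC genes, 0 of 4 nucleotide supply genes and 0 of 3 RPA genes. The CHR words TTTGAA and TTCGAA, known from promoters of mitotic genes, were in windows of 23.8% of the replication genes, 80.0% of 20 mitotic genes and 17.2% of tested genes. CCAAT, the NF-Y word, was in windows of 61.9% of the replication genes and 43.1% of tested genes, and the GC box GGGCGG in 76.2% and 65.1%. The GC box can overlap the reverse complement of an E2F word. A match is a description of letters and does not show a bound site. Shown here from 150 bases before to 30 after the annotated start are the gene with the most E2F words (Mcm6), a gene with E2F words at its start (Rfc3), a gene whose level differed widely among libraries (Gins3) and, for contrast, the gene with the smallest p between genotypes, whose window held none of the 4 words (Dbf4), with E2F words in capitals and all other bases in lower case, 5′ to 3′ on the strand of the gene.
Mcm6, chr1:128359676-128359855, minus strand: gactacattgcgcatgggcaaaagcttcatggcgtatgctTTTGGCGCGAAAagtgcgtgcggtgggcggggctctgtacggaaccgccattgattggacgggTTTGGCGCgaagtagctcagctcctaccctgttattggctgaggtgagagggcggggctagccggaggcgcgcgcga
Rfc3, chr5:151651179-151651358, minus strand: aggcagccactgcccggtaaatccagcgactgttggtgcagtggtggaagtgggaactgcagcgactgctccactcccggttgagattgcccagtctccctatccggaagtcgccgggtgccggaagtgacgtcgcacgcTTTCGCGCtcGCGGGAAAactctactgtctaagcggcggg
Gins3, chr8:95633409-95633588, plus strand: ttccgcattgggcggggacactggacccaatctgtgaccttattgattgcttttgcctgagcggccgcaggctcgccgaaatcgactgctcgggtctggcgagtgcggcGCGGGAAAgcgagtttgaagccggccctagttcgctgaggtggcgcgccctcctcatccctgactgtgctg
Dbf4, chr5:8422687-8422866, minus strand: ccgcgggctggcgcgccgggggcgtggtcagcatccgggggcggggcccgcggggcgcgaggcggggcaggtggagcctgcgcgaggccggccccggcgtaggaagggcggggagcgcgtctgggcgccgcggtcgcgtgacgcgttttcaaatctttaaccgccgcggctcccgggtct
In Mcm6, words began 110, 106 and 47 bases before the start, and the first pair overlapped on opposite strands. In Rfc3 words began 10 bases before the start and at the start itself, and in Gins3 a word began 41 bases before it.

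Totals of the deposited counts were 3058690 to 4548795 per Cited2 CTL library and 3500215 to 4315029 per Cited2 CKO library. Cited2 was at 101 to 222 CPM (counts scaled by the normalized library total) in Cited2 CTL and at 3.80, 4.21, 5.00 and 8.30 CPM in Cited2 CKO 1, 2, 4 and 5, but at 120.1 CPM in the library labelled CKO 3. That library goes against its label and was kept in its group, and some of the main counts and ranges are given without it too. In bulk RNA, fewer cycling cells and less RNA per cycling cell cannot be told apart. HSC markers were present, and none of the 11 markers was at 0 in every library or called between genotypes by edgeR. At an unadjusted p under 0.05 in edgeR's test, 2 of the 11 were higher in Cited2 CKO and 2 lower, against 5.8% and 7.08% of tested genes. The CPM of 1 HSC marker did not overlap between genotypes, against 3.33% of tested genes. Of 8 lymphoid and multipotent progenitor markers, 2 were called higher in Cited2 CKO by the test described next, among them Cd48, whose protein was gated out in the sort (log2 fold change 1.18, standard error 0.20, adjusted p = 0.0264). In this list 6 log2 fold changes were above 0 and 2 below, with a median of 0.51 against 0.0065 over all tested genes. At an unadjusted p under 0.05, 3 were higher and 1, Flt3, was lower (log2 fold change -0.36, standard error 0.11, adjusted p = 0.194). Counts per gene stayed under 1 per base of gene length for nearly all genes, and the replication genes had 0.0341 to 0.659 counts per base, highest in Mcm6. Whether high values were limited by removal of duplicate reads was not tested.

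The genotypes were then compared, since the study asked how Cited2 loss changes gene expression in HSCs. No replication gene was called between Cited2 CKO and Cited2 CTL with edgeR's quasi-likelihood test (adjusted p under 0.05, Benjamini-Hochberg over 14165 genes, fold change above 20%), where 32 genes, 0.226%, were called in all. DESeq2's Wald test called 325 genes (2.29%) at the same thresholds, and Dbf4 was the 1 replication gene among them. Cited2 itself, the deleted gene, was called by neither test with the library labelled CKO 3 kept in its group. Its log2 fold change was -2.51 (standard error 0.94, edgeR adjusted p = 0.328, DESeq2 adjusted p = 0.158), and -4.92 in edgeR without that library. A count of 0 in this comparison thus does not show that the replication genes are unchanged. At an unadjusted p under 0.05, 9 of the 51 genes were higher in Cited2 CKO, against 5.8% of all tested genes, and 1 was lower, against 7.08%. Of the 51 fitted log2 fold changes 25 were above 0 and 26 below, with a median of -0.0054 against 0.0065 over all tested genes. The CPM of the genotypes did not overlap for 1 gene, Dbf4, against 3.33% of tested genes. The log2 fold changes ran from -0.40 in Gins2 to 0.55 in Dscc1, and leaving out each library in turn kept the number of called replication genes at 0. The count of genes with an unadjusted p under 0.05 depended on single libraries. Without the library labelled CKO 3 it was 2 higher and 2 lower, and without Cited2 CKO 4 it was 6 higher and 5 lower. Without the library labelled CKO 3 the median log2 fold change was -0.049. Of the genes whose library values are given below by rule, leaving it out moved the log2 fold change by over 1.5 times to -0.038 in Mcm6, -0.18 in Cdc7, -0.19 in Gins4, 0.085 in Rfc1, 0.025 in Rpa3, -0.014 in Fen1, 0.089 in Rrm1, -0.11 in Tk1 and -0.23 in Uhrf1, and none of these changed sign. Adjusted p-values given with a fold change below are from edgeR's test over all genes.

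**Figure D1:**
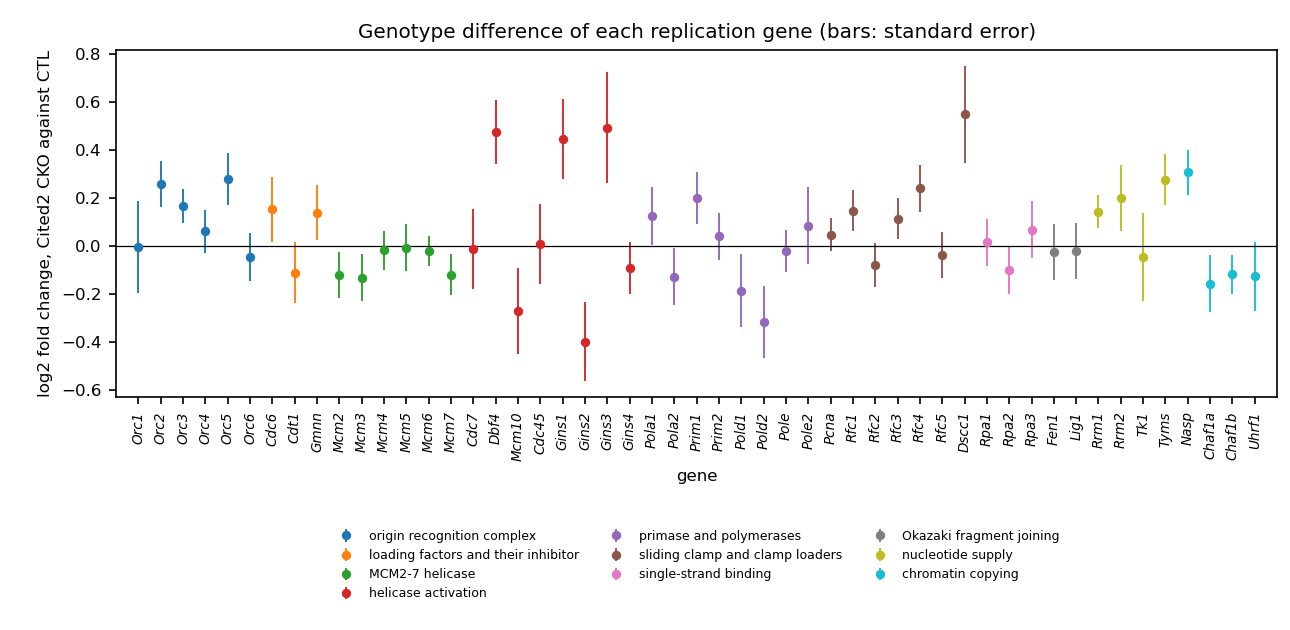
Log2 fold change of each of the 51 replication genes, Cited2 CKO against Cited2 CTL, in the edgeR fit of 5 libraries per genotype, with its standard error as a bar and the role of the gene by colour. Values lie on both sides of 0, from -0.40 in Gins2 to 0.55 in Dscc1, and all 6 MCM2-7 genes lie below 0, of which Mcm5 and Mcm7 go above 0 with an offset for GC content and length.

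Of the 6 subunits of ORC, the complex that marks origins, 4 had log2 fold changes above 0, 2 of which (Orc3 and Orc4) went below 0 with an offset for GC content and length, and 3 had an unadjusted p under 0.05 and a higher level in Cited2 CKO. Orc2 was at 148, 146, 165, 165 and 178 CPM in Cited2 CTL 1 to 5 and 178, 202, 213, 153 and 211 CPM in Cited2 CKO 1 to 5. Cited2 CKO 4 lay within the Cited2 CTL range and the other Cited2 CKO libraries above it (log2 fold change 0.26, standard error 0.096, adjusted p = 0.291). Orc5, the subunit with the highest level per length, was at 95.6, 152, 135, 135 and 149.9 CPM in Cited2 CTL 1 to 5 and 164, 158, 177, 149 and 162 CPM in Cited2 CKO 1 to 5. Cited2 CTL 1 was the low library there, and Cited2 CKO 4 fell inside the Cited2 CTL range (log2 fold change 0.28, standard error 0.11, adjusted p = 0.319). Orc3 was at 272, 283, 273, 317 and 259 CPM in Cited2 CTL 1 to 5 and 327, 313, 325, 330.1 and 281 CPM in Cited2 CKO 1 to 5, one of the 3 narrowest ranges among Cited2 CKO libraries (log2 fold change 0.17, standard error 0.071, adjusted p = 0.348). Orc4 and Orc6 had log2 fold changes of 0.059 and -0.047. Orc1, the subunit whose protein is lost and remade in each cycle, was at a mean of 26.3 ± 5.24 CPM over Cited2 CTL and 26.2 ± 4.94 CPM over Cited2 CKO libraries (SD, n = 5 per genotype), a log2 fold change of -0.0054.

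Neither the loading factors nor their inhibitor had an unadjusted p under 0.05. Gmnn, which encodes geminin, was at 73.6, 75.5, 74.1, 59.7 and 71.3 CPM in Cited2 CTL 1 to 5 and 62.5, 74.0, 87.5, 82.3 and 83.2 CPM in Cited2 CKO 1 to 5. Cited2 CTL 4 was the low library of its group, and 3 Cited2 CKO libraries lay above all Cited2 CTL libraries (log2 fold change 0.14, standard error 0.11, adjusted p = 0.659). Cdc6 was at a mean of 68.5 ± 7.62 CPM over Cited2 CTL and 76.2 ± 14.1 CPM over Cited2 CKO libraries, and Cdt1 at a mean of 81.8 ± 14.8 CPM over Cited2 CTL and 75.5 ± 7.09 CPM over Cited2 CKO libraries, with log2 fold changes of 0.15 and -0.11. The ratio of Cdt1 to Gmnn, licensing factor to inhibitor, was then formed after the values were seen. Its log2 was 0.49, 0.061, 0.23, 0.075 and 0.11 in Cited2 CTL 1 to 5 and 0.049, 0, -0.080, -0.026 and -0.14 in Cited2 CKO 1 to 5. The groups did not overlap, but with log2 CPM corrected for GC content and length the difference between their means went from -0.23 to -0.0028. Of the 4 other ratios formed in the same way, Gins2 to Gins1 differed by -0.89, Gins2 to Gins3 by -0.96, Cdc7 to Dbf4 by -0.51 and Rrm1 to Rrm2 by -0.063 on the log2 scale. As these pairs were picked for their values, no test is given.

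All 6 MCM2-7 genes, the subunits of the helicase, had log2 fold changes below 0, from -0.13 in Mcm3 to -0.0078 in Mcm5, and none had an unadjusted p under 0.05. With an offset for GC content and length, 4 stayed below 0 and Mcm5 and Mcm7 came out at 0.075 and 0.0064. Mcm7 was at 281, 256, 275, 238 and 232 CPM in Cited2 CTL 1 to 5 and 206, 225, 244, 276 and 228 CPM in Cited2 CKO 1 to 5. The groups overlapped over most of their range, with Cited2 CKO 1 lowest of all libraries (log2 fold change -0.12, standard error 0.085, adjusted p = 0.601). Mcm6, the most highly expressed replication gene, was at 533, 476, 505, 487 and 465 CPM in Cited2 CTL 1 to 5 and 444, 507, 505, 509 and 462 CPM in Cited2 CKO 1 to 5. It was among the steadiest of the 51 genes, with a ratio of 1.15 between the highest and lowest Cited2 CKO libraries (log2 fold change -0.024, standard error 0.063, adjusted p = 0.91). Mcm2, Mcm3, Mcm4 and Mcm5 averaged 271, 295, 283 and 228 CPM in Cited2 CTL and 249, 269, 279 and 227 CPM in Cited2 CKO.

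The helicase activation genes held some of the widest differences of the 51 genes, in both directions, and 2 of the 8 were higher and 1 lower at an unadjusted p under 0.05. Dbf4, the regulatory subunit of the CDC7 kinase, was at 67.9, 91.2, 83.2, 81.4 and 67.4 CPM in Cited2 CTL 1 to 5 and 95.6, 98.0, 145, 97.0 and 107 CPM in Cited2 CKO 1 to 5. Every Cited2 CKO library was above every Cited2 CTL library, and the library labelled CKO 3 was far above the others (log2 fold change 0.47, standard error 0.13, adjusted p = 0.152). DESeq2 gave it an adjusted p of 0.043, and edgeR without the library labelled CKO 3 gave a log2 fold change of 0.35 with an adjusted p of 0.24, the range over all alternatives being 0.043 to 0.741. Its partner Cdc7, the catalytic subunit, was at 102, 96.2, 136, 111 and 131 CPM in Cited2 CTL 1 to 5 and 78.9, 97.2, 162, 108 and 124 CPM in Cited2 CKO 1 to 5. The Cited2 CKO libraries spanned a ratio of 2.06 around the Cited2 CTL libraries (log2 fold change -0.014, standard error 0.17, adjusted p = 0.981). The GINS subunits went different ways. Gins1 was at 24.7, 32.3, 25.3, 38.0 and 39.2 CPM in Cited2 CTL 1 to 5 and 40.6, 39.1, 54.1, 42.6 and 41.5 CPM in Cited2 CKO 1 to 5. All Cited2 CKO libraries were near or above the highest Cited2 CTL library (log2 fold change 0.44, standard error 0.17, adjusted p = 0.293). Gins2 was at 40.8, 40.2, 41.5, 40.2 and 46.8 CPM in Cited2 CTL 1 to 5 and 25.4, 24.7, 32.1, 43.5 and 33.2 CPM in Cited2 CKO 1 to 5. The Cited2 CTL libraries were nearly level and 4 of 5 Cited2 CKO libraries were below them, Cited2 CKO 4 being the exception (log2 fold change -0.40, standard error 0.16, adjusted p = 0.331). Gins3 was at 22.7, 44.7, 47.3, 43.6 and 23.6 CPM in Cited2 CTL 1 to 5 and 35.7, 58.6, 56.5, 63.2 and 42.6 CPM in Cited2 CKO 1 to 5, with 2 low Cited2 CTL libraries, and had the second-highest log2 fold change of the 51 genes (log2 fold change 0.49, standard error 0.23, adjusted p = 0.394). Gins4, the most abundant GINS subunit per length, was at 92.6, 95.98, 87.0, 99.4 and 98.5 CPM in Cited2 CTL 1 to 5 and 78.4, 76.9, 111, 84.4 and 93.3 CPM in Cited2 CKO 1 to 5 (log2 fold change -0.092, standard error 0.11, adjusted p = 0.77). Mcm10, which helps to activate the loaded helicase, was at 49.8, 52.8, 37.04, 46.1 and 49.7 CPM in Cited2 CTL 1 to 5 and 26.6, 42.8, 50.3, 43.8 and 31.6 CPM in Cited2 CKO 1 to 5. Cited2 CKO 1 and 5 were below all Cited2 CTL libraries and the others within their range (log2 fold change -0.27, standard error 0.18, adjusted p = 0.555). Cdc45, the third partner of the active helicase, was at a mean of 63.8 ± 9.20 CPM over Cited2 CTL and 64.1 ± 15.2 CPM over Cited2 CKO libraries, a log2 fold change of 0.0068.

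None of the 8 primase and polymerase genes had an unadjusted p under 0.05. Pold2, a small subunit of the lagging-strand polymerase delta, was at 114, 112, 96.7, 93.8 and 108 CPM in Cited2 CTL 1 to 5 and 63.7, 68.3, 106, 109 and 75.1 CPM in Cited2 CKO 1 to 5. Cited2 CKO 1, 2 and 5 were below all Cited2 CTL libraries and the libraries labelled CKO 3 and 4 within their range (log2 fold change -0.32, standard error 0.15, adjusted p = 0.391). Its catalytic partner Pold1 was at 148, 125, 159, 143 and 144 CPM in Cited2 CTL 1 to 5 and 87.2, 108, 128, 179.9 and 129.5 CPM in Cited2 CKO 1 to 5, so that Cited2 CKO libraries were both lowest and highest of all 10 (log2 fold change -0.19, standard error 0.15, adjusted p = 0.648). Pold1 had the widest range of the 51 genes among Cited2 CKO libraries, a ratio of 2.06. Prim1, the catalytic primase subunit and the most abundant of these genes per length, was at 126, 126, 145, 145 and 139.6 CPM in Cited2 CTL 1 to 5 and 124, 137, 182, 178 and 163 CPM in Cited2 CKO 1 to 5. The libraries labelled CKO 3, 4 and 5 were above all Cited2 CTL libraries and Cited2 CKO 1 below them (log2 fold change 0.20, standard error 0.11, adjusted p = 0.463). Pola2, the accessory subunit of polymerase alpha, was at 118, 116, 111, 116 and 141 CPM in Cited2 CTL 1 to 5 and 93.2, 87.1, 128, 127 and 116 CPM in Cited2 CKO 1 to 5 (log2 fold change -0.13, standard error 0.12, adjusted p = 0.695). Pola1, Prim2, Pole and Pole2 had log2 fold changes of 0.12, 0.04, -0.022 and 0.083.

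Among the sliding clamp and its loaders, Dscc1, a subunit of the alternative clamp loader that acts in sister chromatid cohesion, was at 24.4, 29.6, 29.1, 35.8 and 45.5 CPM in Cited2 CTL 1 to 5 and 36.6, 36.1, 63.1, 52.9 and 52.8 CPM in Cited2 CKO 1 to 5. The groups overlapped through Cited2 CTL 5 (log2 fold change 0.55, standard error 0.20, adjusted p = 0.279). Rfc4 was the other gene of this group with an unadjusted p under 0.05, at a mean of 117 ± 10.2 CPM over Cited2 CTL and 138 ± 17.6 CPM over Cited2 CKO libraries (log2 fold change 0.24, standard error 0.099, adjusted p = 0.336). Pcna, the clamp itself, was at 168, 158, 183, 154 and 160.4 CPM in Cited2 CTL 1 to 5 and 163, 173, 172, 172 and 169.8 CPM in Cited2 CKO 1 to 5. Its Cited2 CKO libraries had the narrowest range of all 51 genes, a ratio of 1.06, and lay inside the Cited2 CTL range (log2 fold change 0.046, standard error 0.067, adjusted p = 0.82). Rfc1, the large subunit of the main loader, was at 209, 182, 192, 220.1 and 173 CPM in Cited2 CTL 1 to 5 and 207, 201, 251, 210.5 and 209 CPM in Cited2 CKO 1 to 5, with the library labelled CKO 3 apart from the rest (log2 fold change 0.15, standard error 0.084, adjusted p = 0.501, and without it log2 fold change 0.085). Rfc2, Rfc3 and Rfc5 had log2 fold changes of -0.081, 0.11 and -0.038.

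None of the 3 RPA genes and 2 Okazaki fragment genes had an unadjusted p under 0.05. Rpa2 was at 139, 132, 151, 143 and 151 CPM in Cited2 CTL 1 to 5 and 111, 123, 147, 161 and 125 CPM in Cited2 CKO 1 to 5 (log2 fold change -0.10, standard error 0.10, adjusted p = 0.71). Rpa3, the smallest subunit, was at 58.9, 52.5, 46.4, 47.5 and 56.9 CPM in Cited2 CTL 1 to 5 and 58.0, 47.3, 61.2, 53.2 and 54.8 CPM in Cited2 CKO 1 to 5 (log2 fold change 0.067, standard error 0.12, adjusted p = 0.857). Neither set of libraries stood clear of the other in these subunits, and Rpa1 had a log2 fold change of 0.014. Fen1, the flap endonuclease, was at 121, 126, 119, 134 and 129.8 CPM in Cited2 CTL 1 to 5 and 101, 105, 121, 162 and 132 CPM in Cited2 CKO 1 to 5. The means were nearly equal while the Cited2 CKO libraries lay on both sides of the narrow Cited2 CTL range (log2 fold change -0.026, standard error 0.12, adjusted p = 0.95). Lig1, DNA ligase I, was at a mean of 149 ± 11.2 CPM over Cited2 CTL and 147 ± 27.4 CPM over Cited2 CKO libraries, a log2 fold change of -0.021.

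Of the 4 nucleotide supply genes, Tyms, thymidylate synthase, was at 101, 96.5, 121, 99.9 and 107 CPM in Cited2 CTL 1 to 5 and 109, 108, 148, 136 and 134 CPM in Cited2 CKO 1 to 5. The libraries labelled CKO 3, 4 and 5 were above all Cited2 CTL libraries (log2 fold change 0.27, standard error 0.11, adjusted p = 0.309). Rrm1, the large subunit of ribonucleotide reductase, was at 336, 333, 316, 332 and 332 CPM in Cited2 CTL 1 to 5 and 329, 376, 415, 362 and 336 CPM in Cited2 CKO 1 to 5. Its Cited2 CTL libraries agree within a ratio of 1.06, the narrowest of the group, and the libraries labelled CKO 2, 3 and 4 were above them (log2 fold change 0.14, standard error 0.069, adjusted p = 0.409). Rrm2, the subunit that sets the enzyme's activity in S phase, was at a mean of 102 ± 16.5 CPM over Cited2 CTL and 117 ± 21.2 CPM over Cited2 CKO libraries, a log2 fold change of 0.20. Tk1, the S-phase thymidine kinase, was at 60.9, 70.5, 67.6, 59.0 and 76.6 CPM in Cited2 CTL 1 to 5 and 41.8, 46.8, 76.3, 83.5 and 76.0 CPM in Cited2 CKO 1 to 5. Cited2 CKO 1 and 2 were below all Cited2 CTL libraries and Cited2 CKO 4 above all of them (log2 fold change -0.047, standard error 0.18, adjusted p = 0.94).

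Of the 4 chromatin copying genes, Nasp, a histone chaperone, was at 155, 178, 196, 170.1 and 175 CPM in Cited2 CTL 1 to 5 and 177, 241, 247, 207 and 208 CPM in Cited2 CKO 1 to 5. The 4 Cited2 CKO libraries other than Cited2 CKO 1 were above all Cited2 CTL libraries (log2 fold change 0.31, standard error 0.095, adjusted p = 0.206), the second-smallest p of the 51 genes. Chaf1b, a subunit of the CAF-1 histone chaperone, was at 167, 158, 157, 159.6 and 154 CPM in Cited2 CTL 1 to 5 and 132, 131, 146, 171 and 153 CPM in Cited2 CKO 1 to 5 (log2 fold change -0.12, standard error 0.082, adjusted p = 0.587). Uhrf1, which recruits the maintenance DNA methyltransferase, was at 148, 148, 171, 125 and 141 CPM in Cited2 CTL 1 to 5 and 86.5, 143, 171, 133 and 137 CPM in Cited2 CKO 1 to 5. Cited2 CKO 1 stood far below the other libraries (log2 fold change -0.13, standard error 0.14, adjusted p = 0.758). Chaf1a had a log2 fold change of -0.16.

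GC content moved with these differences. The 25 genes with a log2 fold change above 0 had a median GC content of 43.99%, the 26 below 0 had 51.6%, and the 9 with an unadjusted p under 0.05 and a higher level had 40.6%, and the median over the whole tested table was 48.8%. When each library was given an offset fitted on GC content and length, 1 of the 51 genes had an unadjusted p under 0.05 in place of 10, and the log2 fold change of Dbf4 became 0.31 (adjusted p = 0.715). The offset would also take out a genotype effect that follows GC content, and these cannot be told apart. Exons of 19 of the 51 genes overlap exons of another gene in GENCODE, among them Orc2, Orc5, Mcm7, Gins2, Dscc1, Fen1 and Tk1, and Pcna, Tyms and Nasp have annotated pseudogenes, so their counts are uncertain where the counting did not use strand or shared reads among copies.

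The libraries were next ordered within each genotype by their replication score, the mean over the 51 genes of log2 CPM minus the mean of the gene over all 10 libraries. Cited2 CTL 1 to 5 scored -0.046, -0.037, 0.012, -0.031 and 0.0096, and Cited2 CKO 1 to 5 scored -0.20, -0.091, 0.21, 0.15 and 0.021. Grouped by label, the Cited2 CTL libraries were thus nearly level, with a range of 0.058 and an SD of 0.027. The Cited2 CKO libraries were spread over a range of 0.41 with an SD of 0.17, on both sides of Cited2 CTL. Expressed as folds, the highest library was 1.33 times the lowest among Cited2 CKO and 1.04 times among Cited2 CTL. Summed over the genes, levels were 7045 to 7322 CPM in Cited2 CTL and 6381, 6910, 8189, 7927 and 7248 CPM in Cited2 CKO 1 to 5. Without the library labelled CKO 3 the range among Cited2 CKO libraries was 0.35, and without Cited2 CKO 1 it was 0.30. Were the library labelled CKO 3 a control, the control scores would run from -0.046 to 0.21. The other Cited2 CKO libraries ran from -0.20 to 0.15, so the contrast in range would be smaller. Totals of counts did not follow this order, with 4218483 in Cited2 CKO 1, 4264055 in the library labelled CKO 3 and 3500215 in Cited2 CKO 4. With log2 CPM corrected for GC content and length, the libraries labelled CKO 3, 4 and 5 were at 0.14, 0.19 and 0.17 and Cited2 CKO 1 and 2 at -0.29 and -0.18, a range of 0.48 against 0.086 in Cited2 CTL. The exact order thus depends on that correction. With and without it, the libraries labelled CKO 3 and 4 were above all Cited2 CTL libraries, and Cited2 CKO 1 and 2 were below them.

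**Figure D2:**
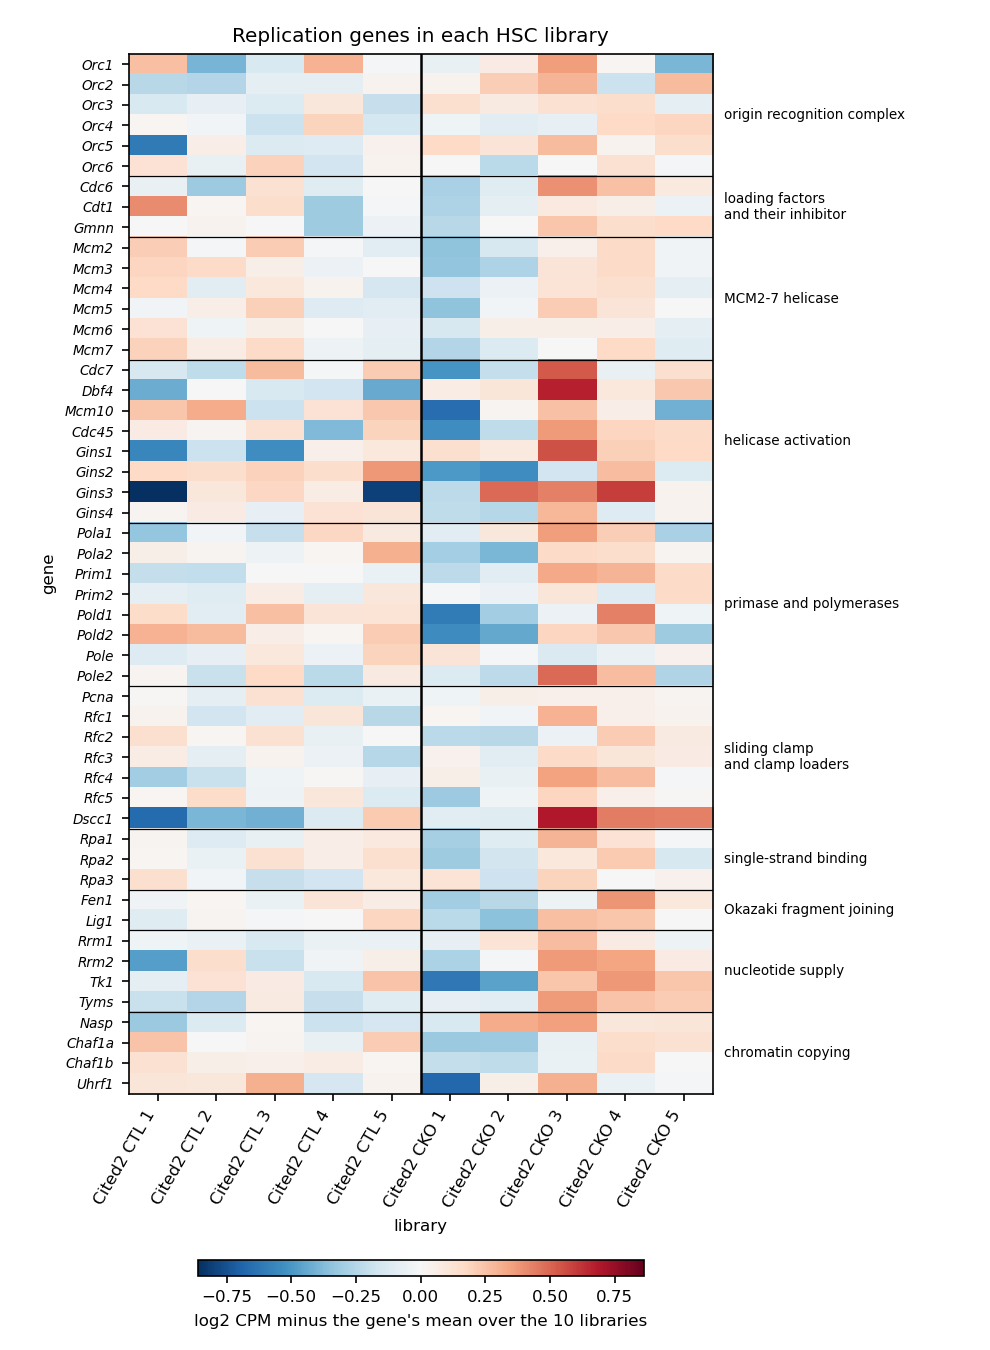
Log2 CPM of each of the 51 replication genes in each library, as the difference from the mean of the gene over all 10 libraries (red higher, blue lower), with genes in order of role and the Cited2 CTL libraries left of the vertical line. The column of the library labelled CKO 3 is mostly red and that of Cited2 CKO 1 mostly blue, and the Cited2 CTL columns are mixed, with Gins3, Dscc1, Gins1 and Orc5 low in Cited2 CTL 1.

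The order was then looked at by gene and by role, within the same 51 genes that gave it. The library labelled CKO 3 was the highest of all 10 for 27 of the 51 genes, against 12.1% of tested genes, and Cited2 CKO 1 the lowest for 19, against 8.49%. The library labelled CKO 3 exceeded Cited2 CKO 1 in 47 of the 51 genes, by a median of 0.42 on the log2 scale, and Cited2 CKO 4 exceeded Cited2 CKO 1 in 46, by a median of 0.39. These libraries were picked by the score of the same genes, so a majority in this direction was largely fixed in advance. For all tested genes these pairs were even (49.7% for each pair), which the normalization favours. Among Cited2 CTL libraries the most uneven pair was Cited2 CTL 4 against Cited2 CTL 5, with 18 of the 51 genes higher in Cited2 CTL 4. The order 3, 4, 5, 2, 1 held within 7 of the 10 role groups. After the GC correction it held for the loading factors and helicase activation, while Cited2 CKO 1 and 2 were the lowest Cited2 CKO libraries in every role group. Helicase activation had the widest range among Cited2 CKO libraries, from -0.30 to 0.36, followed by Okazaki fragment joining and nucleotide supply with ranges of 0.60 and 0.57. ORC was the exception without the GC correction, with a range of 0.14 among Cited2 CKO and 0.17 among Cited2 CTL libraries, but with it these were 0.49 and 0.22. MCM2-7 scores were 0.15, 0.025, 0.13, -0.031 and -0.081 in Cited2 CTL 1 to 5 and -0.27, -0.091, 0.089, 0.13 and -0.055 in Cited2 CKO 1 to 5, so that Cited2 CTL 1 was the highest library there. Genes of a role group share libraries and are not independent of each other.

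**Figure D3:**
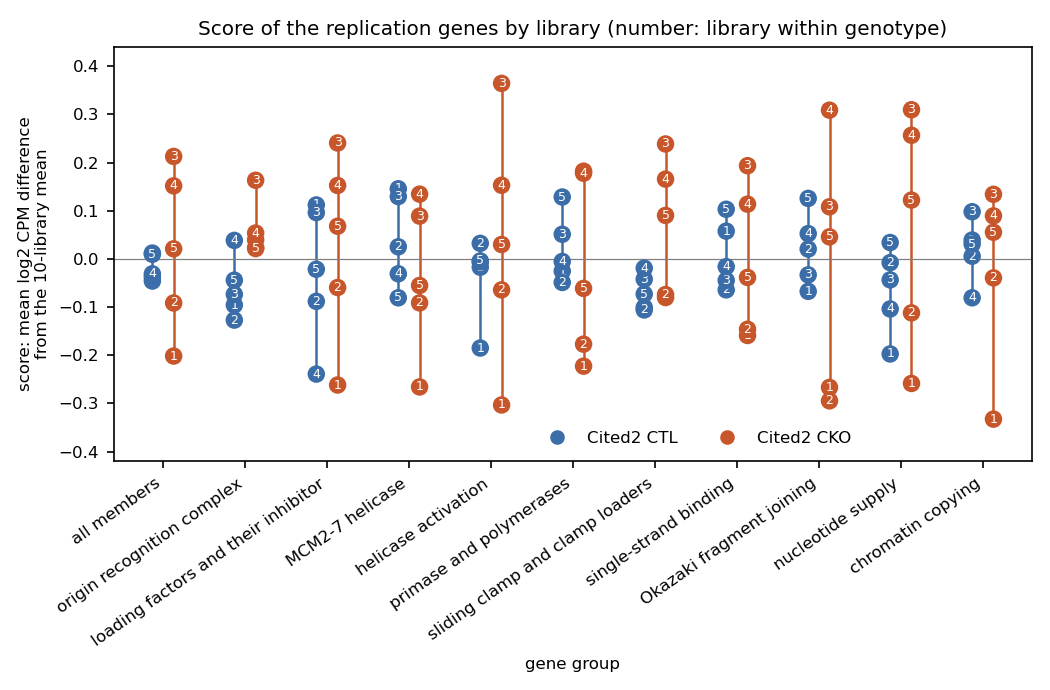
Score of all 51 replication genes and of each role group (mean difference of log2 CPM from the 10-library mean) in each library, with Cited2 CTL in blue and Cited2 CKO in orange, the number of the library in each point and lines over the range. Grouped by label, Cited2 CTL spans 0.058 and Cited2 CKO 0.41 for all genes, and the library labelled CKO 3 is the highest. ORC is the group whose range is not wider in Cited2 CKO, which turns with the GC correction.

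The spread of single genes was compared as well. The SD of log2 CPM was larger among Cited2 CKO than among Cited2 CTL libraries for 38 of the 51 genes (74.5%; 37 without the library labelled CKO 3), against 57.9% of all tested genes, and their median SD was 0.13 among Cited2 CTL and 0.21 among Cited2 CKO libraries, against 0.24 and 0.28 over all tested genes. By role it was larger in Cited2 CKO for 6 of 6 MCM2-7 genes, 4 of 4 nucleotide supply genes and 4 of 4 chromatin copying genes, and for 1 of 6 ORC genes. Across all genes, limma's test on absolute deviations called no difference in spread after Benjamini-Hochberg adjustment (0 of 14165 genes, 0%). At an unadjusted p under 0.05, 10 of the 51 genes were more spread in Cited2 CKO, against 7.15% of tested genes, and 1, Orc5, in Cited2 CTL, against 3.14%. These counts and the median SDs include the library labelled CKO 3 and are not given without it. The 10 were Fen1, Gins2, Chaf1b, Rrm1, Pold1, Tk1, Lig1, Pold2, Gins4 and Rpa2. For Fen1 the SD was 0.067 among Cited2 CTL and 0.27 among Cited2 CKO libraries, for Tk1 0.15 and 0.46, and for Pold1 0.13 and 0.38. Pcna went the other way, with 0.097 among Cited2 CTL and 0.034 among Cited2 CKO libraries.

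**Figure D4:**
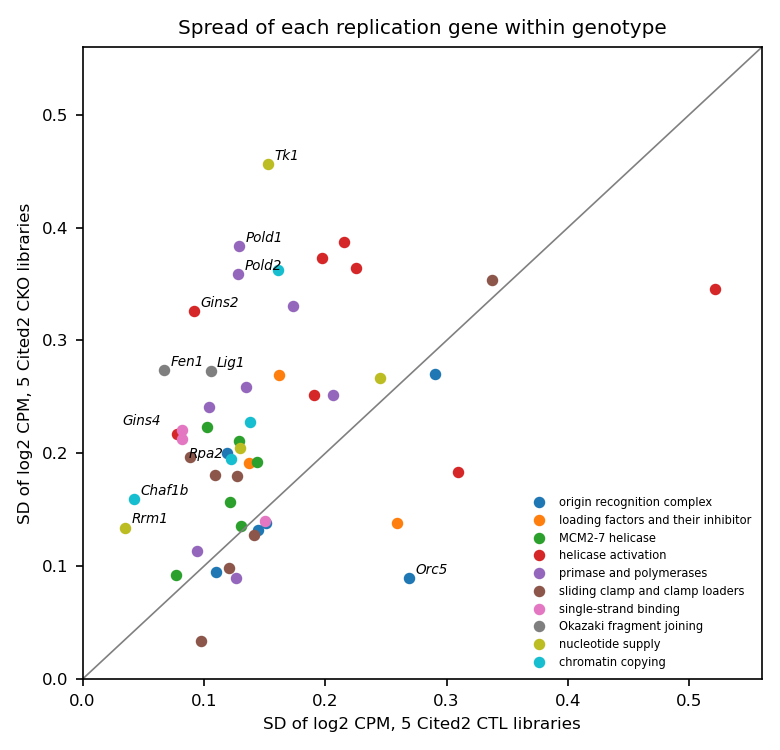
SD of log2 CPM of each of the 51 replication genes over the 5 Cited2 CTL libraries (horizontal) and the 5 Cited2 CKO libraries (vertical), coloured by role, with the line of equal spread and names for genes with an unadjusted p under 0.05. Of the 51 points 38 lie above the line.

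Other gene lists were set beside the score. The 30 further replication genes gave the same order among Cited2 CKO libraries, with scores of -0.13, -0.081, 0.24, 0.083 and 0.014 in Cited2 CKO 1 to 5 and a range of 0.13 in Cited2 CTL, and with the GC correction their order was 5, 3, 4, 2, 1. None of the 30 was called by edgeR, 3 had an unadjusted p under 0.05 and a higher level and 1 a lower, and Wdhd1, a fork protein that links the helicase to polymerase alpha, had the smallest p (log2 fold change 0.46, standard error 0.11, adjusted p = 0.0948) and was called by DESeq2 (adjusted p = 0.00822). The 15 S-phase entry regulators, E2F factors and cyclins among them, had scores of -0.30, -0.22, 0.066, 0.30 and 0.25 in Cited2 CKO 1 to 5, so that Cited2 CKO 4 and 5 were highest. Of these regulators 2 were higher and 1 lower at an unadjusted p under 0.05, and Fbxo5, an inhibitor of the anaphase-promoting complex, had the smallest p (log2 fold change 0.27, standard error 0.097, adjusted p = 0.265). The 24 mitotic genes scored -0.22, 0.13, 0.083, 0.19 and 0.052 in Cited2 CKO 1 to 5, which placed Cited2 CKO 2 second highest. That place rests on uncorrected values, since with the GC correction the scores were -0.32, -0.0053, -0.016, 0.24 and 0.23 and Cited2 CKO 4 and 5 were highest. Of the mitotic genes 4 were higher and 0 lower at an unadjusted p under 0.05, and Ccnb1, cyclin B1, had the smallest p (log2 fold change 0.45, standard error 0.097, adjusted p = 0.0781) and was called by DESeq2 (adjusted p = 0.00301).

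Cell type markers were examined in the same way. The 11 HSC markers had scores of 0.057, 0.069, -0.18, -0.11 and 0.052 in Cited2 CKO 1 to 5, lowest in CKO 4 and the library labelled CKO 3, and -0.053 to 0.078 in Cited2 CTL. Corrected for GC content and length, they were -0.03, -0.044, -0.26, -0.06 and 0.22, and the library labelled CKO 3 stayed lowest. Summed levels of the HSC markers were 2061 to 2323 CPM in Cited2 CTL and 1851 to 2089.9 CPM in Cited2 CKO, with 1851 in the library labelled CKO 3. The 8 lymphoid and multipotent progenitor markers summed to 662 to 787 CPM in Cited2 CTL and 695 to 903 CPM in Cited2 CKO, where the library labelled CKO 3 was the lowest. Their scores were -0.62 to 0.097 in Cited2 CTL and 0.36, 0.36, -0.0091, 0.49 and 0.39 in Cited2 CKO 1 to 5. With and without the GC correction, Cited2 CKO 1, 2, 4 and 5 scored above all Cited2 CTL libraries. The 11 myeloid markers summed to 189.7 to 718 CPM in Cited2 CTL, 151 to 449 CPM in Cited2 CKO, highest in replicate 5 of each genotype. Summed levels were 219 to 365 CPM in Cited2 CTL, 288 to 377 CPM in Cited2 CKO for 9 erythroid markers and 422 to 516 CPM in Cited2 CTL, 401 to 553 CPM in Cited2 CKO for 7 megakaryocyte markers. They were 51.4 to 90.8 CPM in Cited2 CTL, 54.9 to 77.3 CPM in Cited2 CKO for 6 B cell markers and 24.1 to 42.2 CPM in Cited2 CTL, 28.7 to 38.5 CPM in Cited2 CKO for 7 T and NK cell markers. None of these was called, and the smallest p in each list had log2 fold changes of -0.25 (adjusted p = 0.361) for Prtn3, 0.22 (adjusted p = 0.604) for Aqp1, -0.32 (adjusted p = 0.535) for Treml1, -0.03 (adjusted p = 0.955) for Cd79b and -0.37 (adjusted p = 0.881) for Cd4. No marker was at 0 in all 10 libraries. The part of these markers in the order of the libraries was not tested.

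Levels were last compared between subunits of one complex, as CPM per kilobase of the deposited gene length, averaged over the 10 libraries (± SD). Among 40 genes in 12 complexes, 28 pairs of neighbours in the order of levels were compared by a two-sided exact permutation of the paired differences, and 21 differed at an adjusted p under 0.05. The order came from these same libraries. The p-value measures how steadily a difference held over the libraries, and not error from assigned length, GC content or overlapping exons. For MCM2-7, whose subunits are present once each in the ring, Mcm6 was highest with 169 ± 9.43 CPM per kilobase and Mcm5 lowest with 66.4 ± 7.39, a ratio of 2.54. In this test of differences within libraries, Mcm7 (103 ± 10.5) and Mcm3 (97.8 ± 11.7) differed slightly (adjusted p = 0.041). Mcm4 (78.3 ± 6.83) and Mcm2 (77.1 ± 9.04) showed no clear difference in it (adjusted p = 0.429). ORC was more uneven, with a ratio of 8.24 between Orc5 (71.8 ± 10.9) and Orc1 (8.71 ± 1.59), which was the lowest of all 51 genes. Without Orc1 the remaining ORC genes lay between 42.1 and 71.8 CPM per kilobase. The neighbours Orc6 and Orc2, and Orc2 and Orc3, showed no clear difference in the paired test (adjusted p = 0.431 and 0.0999). Orc6 was higher than Orc2 in Cited2 CTL (55.7 against 47.6) and lower in Cited2 CKO (53.9 against 56.8). In GINS, Gins4 was at 67.3 ± 7.66, Gins2 at 35.5 ± 7.29, Gins1 at 32.5 ± 7.44 and Gins3 at 18.2 ± 5.68 CPM per kilobase. Gins2 and Gins1 showed no clear difference in the paired test over all 10 libraries (adjusted p = 0.476). Their order differed between genotypes, with Gins2 the higher in Cited2 CTL (40.4 against 27.5) and Gins1 in Cited2 CKO (37.5 against 30.6).

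The clamp had a higher mean per length than each of its loader subunits, a difference that was not tested, with Pcna at 133 ± 6.75 CPM per kilobase against 121 ± 12.5 for Rfc2, 105 ± 14.4 for Rfc4, 86.1 ± 6.98 for Rfc3, 71.3 ± 6.83 for Rfc5 and 43.5 ± 4.56 for Rfc1. RPA subunits were closer to each other, with Rpa3 at 84.1 ± 8.21, Rpa2 at 77.6 ± 8.57 and Rpa1 at 51.9 ± 5.70. Rpa3 and Rpa2 showed no clear difference in the paired test (adjusted p = 0.15). Prim1 (95.5 ± 13.8) was 2.04 times Pola1 (47.0 ± 7.35), and Pole2 (31.6 ± 5.85) 2.17 times Pole (14.3 ± 1.05). Chaf1b (80.0 ± 6.94) was 3.30 times Chaf1a (24.4 ± 3.25), and Rrm1 (86.8 ± 7.41) 1.74 times Rrm2 (50.3 ± 9.02), all with adjusted p = 0.00365. Gmnn (76.1 ± 8.89) was 2.13 times Cdt1 (35.9 ± 5.22). Cdc7 and Dbf4 showed no clear difference in the paired test over all 10 libraries (adjusted p = 0.854), with Cdc7 the higher in Cited2 CTL and Dbf4 in Cited2 CKO. These are RNA levels, and they depend on the length assigned to each gene.

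**Figure D5:**
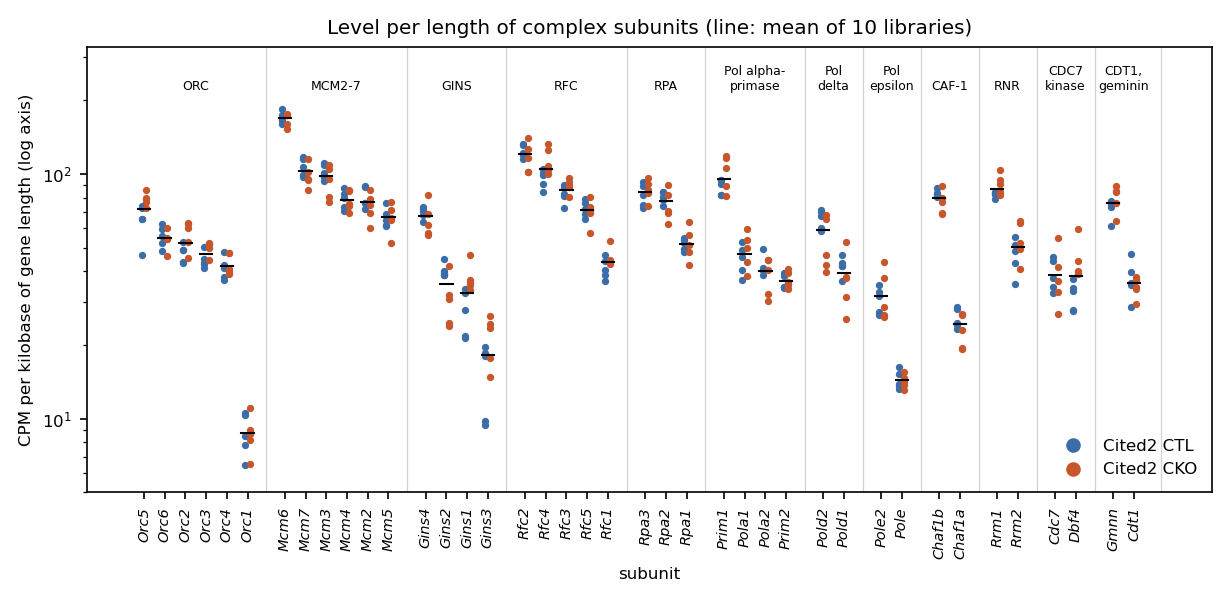
CPM per kilobase of gene length (log axis) of the subunits of 12 replication complexes in each Cited2 CTL (blue) and Cited2 CKO (orange) library, with the mean of the 10 libraries as a line. RFC stands for replication factor C and RNR for ribonucleotide reductase. Mcm6 is highest at 169 and Orc1 lowest at 8.71 CPM per kilobase.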

How the data were processed

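Poly(A) RNA was measured in 10 libraries of sorted HSCs, 5 per genotype, grouped by their labels. The authors sequenced single ends of 85 bases and used HISAT2 (GRCm38) for alignment and Rsubread for gene counts, and they deposited raw counts by gene symbol, with gene lengths. The annotation, the use of strand, the handling of shared reads and any removal of duplicates are not given in the sources used here. Deposited totals were 3058690 to 4548795 counts per library, which limits the precision of low genes. These totals are not the sequencing depth, as the paper gives a far larger mean number of reads per sample. Why so few reads were counted was not tested.

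The members and the other gene lists were chosen with earlier results of these data known. The test was that of edgeR 4.0.16 under R 4.3.3 (filterByExpr, TMM, robust quasi-likelihood F test, Benjamini-Hochberg adjustment over 14165 genes, called at 0.05 with a change of over 20%). A prior of 2 counts was added for log2 CPM. Spread was tested with limma 3.58.1 on absolute deviations of log2 CPM from the group mean. That test made no calls on simulated data with added spread in 1 genotype, so its count of 0 says little. Scripts were tested on simulated data.

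Genes were named by a rule: Cited2, members called or without overlap between genotypes, in each role group the smallest p and the highest level per length, the 5 widest and 3 narrowest ranges among Cited2 CKO libraries, members with a library that stands apart, and in other lists called genes and the smallest p. Other members are given to complete their role group, and genes outside the rule were named after their values were seen. Some marker genes that the rule names are not reported here. GC content came from GENCODE for 97.0% of genes. Alternatives were DESeq2 1.42.0 (Wald test, or its size factors in edgeR), no filter, at least 10 counts in every library, limma-voom, the replicate number as a block, a loess offset for GC content and length (span 50%) without and with the block, other scores, and each library left out. The ranges of the score without 1 library, and the ratio of Cdt1 to Gmnn with its alternatives, were added after the data were seen. Promoters are RefSeq sequences of GRCm38.p6, and 9 members without an entry in that table were not analysed for motifs.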

Additional observations from a re-analysis of the deposited data

Results flagged for a closer look

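A library stood apart from the other 4 of its genotype, by Dixon's criterion on its gap to the nearest library, in 10 of 126 groups of 5 libraries examined, where chance would give 6.3. Cited2 in the library labelled CKO 3 was at 120.1 CPM, far above the other Cited2 CKO libraries. In that library Dbf4 was high at 145 CPM, Gins1 at 54.1 CPM and Rfc1 at 251 CPM, and the ORC score was high at 0.16. In Cited2 CTL 5, Gins2 was high at 46.8 CPM and Pola2 at 141 CPM. Gmnn was low at 59.7 CPM in Cited2 CTL 4, Rrm1 was low at 316 CPM in Cited2 CTL 3, and the helicase activation score was low at -0.18 in Cited2 CTL 1.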

How the results depend on the processing

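Members called between genotypes stayed at 0 except with DESeq2, which called 1 (Dbf4), and called 325 genes in all against 32. The offset for GC content and length left 8 called genes (12 with the replicate block), and leaving out 1 library gave 8 to 42. With the offset the log2 fold change changed sign, among members named by the rule, for Mcm7 (0.0064), Pcna (-0.043), Rpa3 (-0.20), Fen1 (0.11), Pold1 (0.092), Tk1 (0.012), Uhrf1 (0.0022) and Orc3 (-0.020). It also did for Orc4, Cdt1, Mcm5, Pola1, Prim2, Pole2, Rfc3, Rfc5 and Lig1. With the offset and the replicate block it did, among members named by the rule, for Mcm7 (0.0053), Pcna (-0.044), Rpa3 (-0.20), Fen1 (0.095), Pold1 (0.067) and Orc3 (-0.028). With 1 library left out, it ranged from -0.048 to 0.0045 for Mcm6, -0.14 to 0.038 for Fen1, -0.18 to 0.090 for Cdc7 and -0.16 to 0.073 for Tk1.

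As a mean z-score, the range of the member score was 1.89 among Cited2 CKO and 0.34 among Cited2 CTL libraries. Corrected for GC content and length, the range in Cited2 CTL was 0.086. Of the 10 libraries, 6 kept their rank with the log2 of summed CPM and 2 after the GC correction. The cause of these changes was not tested.

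Correlations between the deviations of same-numbered libraries were mixed (-0.095 to 0.208, with numbers 3 and 5 above 0.1), and no label ties the numbers to mice or batches, so the libraries were treated as sharing only a number. Number 5 was the only one whose best match was its own number. With the replicate block, 0 members and 24 genes were called and the smallest adjusted p of a member in edgeR's test was 0.175 (Nasp). Depth limits the genes with the fewest counts, down to 68 in a library. Strand and duplicate handling are unknown here.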
